A study of Mus musculus with 6 samples.

Results

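The genes described here are 10 secreted or shed signals by which tumour cells call in and sustain myeloid cells: the chemokine genes Cxcl1, Cxcl2, Cxcl5, Ccl2, Ccl7 and Cx3cl1, the colony-stimulating factor genes Csf1, Csf2 and Csf3, and the cytokine gene Il6. They were chosen by symbol with earlier results of these data known, so comparisons of the members with all genes are descriptions. All 10 are among the 49523 genes of the count table. RNA sequencing was done on EO771, an established mouse mammary carcinoma line, as 3 libraries of cells labelled cancer stem cells (CSC) and 3 of cells labelled non-CSC. The labels give no treatment, genotype change or host animal, and how CSC were separated is not stated. Nothing says that replicates came from separate cultures, so p-values measure the spread between these libraries, which may be technical. The comparison named by the design text is CSC against non-CSC. Values are read counts per gene, shown also as CPM, counts scaled to a common library size. The CSC libraries held 27099879 to 28205651 counts and the non-CSC libraries 32204112 to 35971131.

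Chemokines are small secreted proteins that bind G protein-coupled receptors on leukocytes and direct their migration. In the mouse, Cxcl1 (KC), Cxcl2 (MIP-2) and Cxcl5 (LIX) act on the neutrophil receptor CXCR2, Ccl2 and Ccl7 draw monocytes through CCR2, and Cx3cl1 (fractalkine) is made on the membrane as an adhesive ligand of CX3CR1 and released by sheddases. The colony-stimulating factors drive the growth and survival of macrophages (Csf1, M-CSF), of granulocytes and macrophages (Csf2, GM-CSF) and of neutrophils (Csf3, G-CSF), and interleukin 6 signals through gp130 and STAT3. In mammary tumours such factors are known for shaping the infiltrate of neutrophils, monocytes and macrophages.

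Of the 10 members, 5 rose in CSC, and each of these rose at least 2-fold: Cxcl5, Csf2, Ccl2, Cx3cl1 and Cxcl1. Cxcl2 fell slightly, Csf1 and Il6 did not pass the test, and Ccl7 and Csf3 had too few counts to be tested. The test was edgeR's quasi-likelihood test with Benjamini-Hochberg adjustment over 17630 genes, with an adjusted p under 0.05 as the threshold. The groups differed at a large share of all genes tested, 66.5% in either direction, 33.4% higher and 33.1% lower in CSC, with 8.01% at least 2-fold higher and 4.09% at least 2-fold lower. The libraries of the groups did not overlap for 6 members, all higher in CSC (the 5 that rose and the untested Ccl7), and for none lower. Among the 8 tested members the groups did not overlap for 5, all higher. Over all genes tested they did not overlap for 35% higher and 34.3% lower. The median log2 fold change was 1.30 over the 8 tested members and 0.01 over all genes tested, as a description. All 10 members together took 0.0210% to 0.0222% of the counts of a CSC library and 0.00964% to 0.0105% of a non-CSC library. These are bulk libraries, in which more cells expressing a gene and more RNA per cell cannot be told apart.

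**Figure D1:**
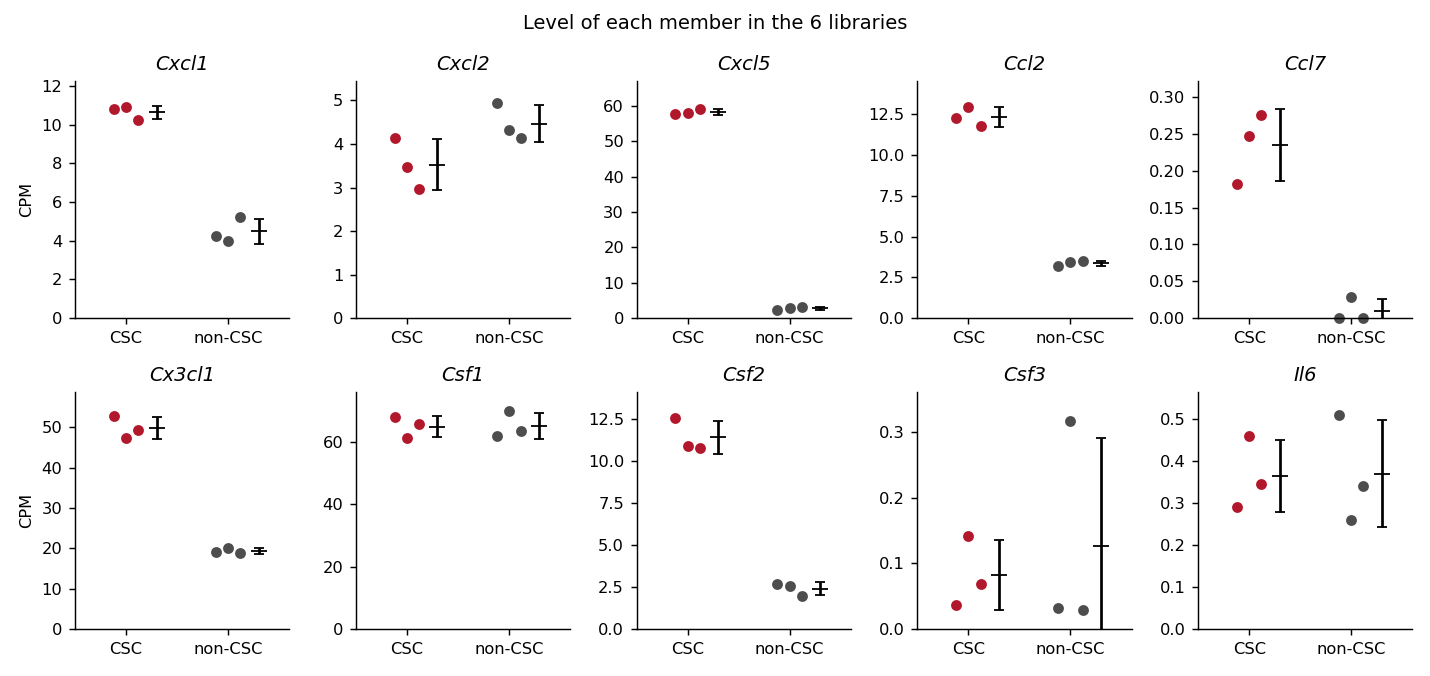
Level of each member in CPM (vertical axes, linear and starting at 0) in the 3 CSC libraries (red) and the 3 non-CSC libraries (grey), with the mean and SD beside the points (the lower SD bars of Ccl7 and Csf3 in non-CSC are cut at 0). The groups are separate for Cxcl1, Cxcl5, Ccl2, Ccl7, Cx3cl1 and Csf2, and overlap for Cxcl2, Csf1, Csf3 and Il6.

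Cxcl5 had the largest change among the tested members. The gene, which is protein-coding occupies bases 90759298 to 90761625 of chromosome 5 (GRCm38). Its counts were 1586, 1636 and 1717 in the CSC libraries and 72, 100 and 108 in the non-CSC libraries, or 57.6, 57.8 and 59.2 CPM in CSC against 2.29, 2.88 and 3.06 CPM in non-CSC. The lowest CSC library was far above the highest non-CSC library, and the spread within each group was small beside the gap. On the log2 scale it rose by 4.40 ± 0.0735 (SE), or 21.1-fold (edgeR adjusted p = 5.02e-23), and it ranked 75 by size among the 17630 genes tested.

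Cxcl1, a neutrophil chemokine of the same family, rose less. Its coordinates are chromosome 5, 90891245 to 90893121. Counts of 297, 308 and 297 in CSC stood against 134, 138 and 184 in non-CSC, which gave 10.8, 10.9 and 10.2 CPM against 4.27, 3.98 and 5.21 CPM. All CSC libraries were above all non-CSC libraries. The rise was 1.24 ± 0.0937 (SE) on the log2 scale, or 2.36-fold (edgeR adjusted p = 5.38e-11).

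Cxcl2, whose gene starts 12.7 kb from that of Cxcl1 at chromosome 5, 90903899 to 90905938, was slightly lower in CSC. Its counts were 114, 98 and 86 in CSC and 155, 150 and 146 in non-CSC. In CPM these were 4.14, 3.46 and 2.96 in CSC and 4.94, 4.32 and 4.13 in non-CSC, so that CSC replicate 1 lay within the non-CSC range. The Cxcl2 log2 fold change was -0.34 ± 0.122 (SE), with an edgeR adjusted p of 0.0174. The call was lost with DESeq2 (adjusted p = 0.0642), without CSC replicate 3 (edgeR adjusted p = 0.126) and without non-CSC replicate 1 (edgeR adjusted p = 0.0641). Of the 50-base words of the longest Cxcl2 transcript, 5.35% also occur in other genes' transcripts, chiefly those of Cxcl3, so a small part of its reads could have been shared between them.

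RefSeq promoter windows (GRCm38.p6, 250 bases before to 50 after the start, read on the gene's strand) were found for 6 of the 10 members: Cxcl1, Cxcl2, Cx3cl1, Csf1, Csf2 and Il6. Each was searched on both strands for the kappa-B consensus, the binding motif of NF-kB, and for the AP-1 motif TGACTCA. The kappa-B consensus was found in the windows of Cxcl1, Cxcl2, Csf1 and Il6, and in 4.51% of all 32851 promoter windows. The 4 windows are shown because they hold that match in genes of which 1 rose, 1 fell and 2 did not pass the test, with the matched bases in capitals:
Cxcl1 promoter, chr5:90890995-90891294, plus strand: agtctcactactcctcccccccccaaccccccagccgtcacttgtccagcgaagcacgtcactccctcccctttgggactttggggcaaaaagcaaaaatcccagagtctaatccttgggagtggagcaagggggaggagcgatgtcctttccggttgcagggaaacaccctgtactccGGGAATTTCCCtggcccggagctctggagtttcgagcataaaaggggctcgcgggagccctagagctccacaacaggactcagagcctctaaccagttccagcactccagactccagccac
Cxcl2 promoter, chr5:90903649-90903948, plus strand: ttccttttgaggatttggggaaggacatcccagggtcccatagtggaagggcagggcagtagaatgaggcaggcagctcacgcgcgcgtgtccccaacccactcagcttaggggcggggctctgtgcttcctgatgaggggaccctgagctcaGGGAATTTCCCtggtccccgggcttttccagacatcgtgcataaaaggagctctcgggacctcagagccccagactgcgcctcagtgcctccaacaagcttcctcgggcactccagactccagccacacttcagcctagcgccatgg
Il6 promoter, chr5:30012864-30013163, plus strand: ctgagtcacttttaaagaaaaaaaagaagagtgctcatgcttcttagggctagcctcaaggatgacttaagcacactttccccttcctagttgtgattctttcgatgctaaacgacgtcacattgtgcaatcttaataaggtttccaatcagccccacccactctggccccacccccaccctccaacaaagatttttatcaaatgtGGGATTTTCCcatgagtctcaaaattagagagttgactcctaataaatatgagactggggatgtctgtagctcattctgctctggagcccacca
Csf1 promoter, chr3:107760420-107760719, minus strand: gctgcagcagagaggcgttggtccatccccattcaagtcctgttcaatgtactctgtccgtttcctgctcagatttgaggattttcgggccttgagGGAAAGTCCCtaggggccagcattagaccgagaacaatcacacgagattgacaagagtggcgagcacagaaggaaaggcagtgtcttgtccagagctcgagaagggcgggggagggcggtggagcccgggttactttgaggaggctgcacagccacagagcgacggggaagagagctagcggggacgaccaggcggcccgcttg

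Cxcl1 and Cxcl2 carried the same matched bases, GGGAATTTCC and its overlapping match on the other strand GGAATTTCCC, from -71 and from -97, counted from the gene's first base as 0. Il6 carried GGGATTTTCC from -44, and Csf1 had its match, GGAAAGTCCC as read in the window, from -154 on the opposite strand. The AP-1 motif was found in the Il6 window alone of the 6, from -249, and in 5.2% of all windows. Neither motif was found in the windows of Csf2 and Cx3cl1. For these the GENCODE M21 annotation starts the gene 232 bases downstream and 171 bases upstream of the RefSeq start, so that other starts have other windows. A match describes letters and is no evidence of binding.

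**Figure D2:**
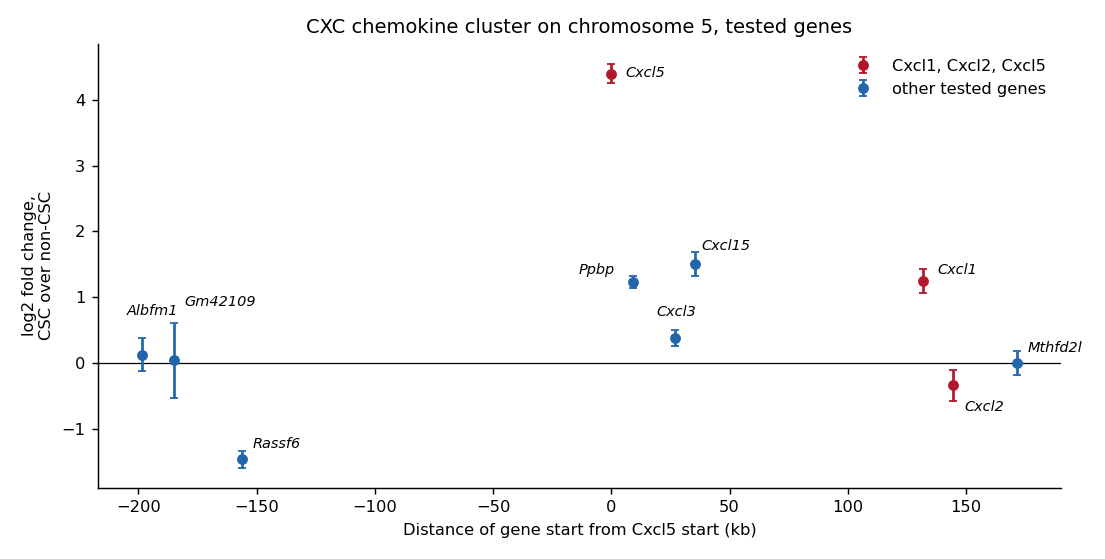
The log2 fold change of CSC over non-CSC (vertical axis, bars are 95% intervals) of the tested genes in and around the chemokine cluster on chromosome 5, by distance of the gene's start from that of Cxcl5 in kb. Cxcl5 at 4.40 stands above its neighbours, Ppbp, Cxcl15 and Cxcl1 lie between 1.24 and 1.5, and Cxcl2 and Rassf6 lie below 0.

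The 3 CXC members sit in a chemokine cluster, and the genes between them were also measured. Ppbp (Cxcl7), another CXCR2 ligand that platelets are known to store, starts 9.22 kb from Cxcl5 and averaged 103.9 ± 4.08 CPM in CSC and 44.2 ± 2.07 CPM in non-CSC (SD, n = 3 each), which on the log2 scale was 1.24. Cxcl15 (lungkine) averaged 10.2 ± 0.570 CPM in CSC and 3.61 ± 0.305 CPM in non-CSC and rose by 1.5 on the log2 scale. Cxcl3, also a CXCR2 ligand, rose by only 0.38, with 23.6 ± 0.865 CPM in CSC and 18.2 ± 1.05 CPM in non-CSC. The highest edgeR adjusted p of these 3 was 6.53e-06. Pf4 in the same cluster had 30 counts in all CSC libraries together and 11 in all non-CSC libraries together and was not tested. On either side of the cluster lay genes that fell and genes that did not pass the test. Rassf6, whose start lies at -156 kb from that of Cxcl5, fell by 1.46 on the log2 scale, and Areg, which encodes the EGF receptor ligand amphiregulin, 235.7 kb after Cxcl2, fell by 3.06 (8.20 CPM in CSC and 68.4 CPM in non-CSC). Mthfd2l, the tested gene next to Cxcl2, did not pass the test, and neither did Albfm1 (log2 fold change 0.13) and Gm42109 (0.04) beyond Rassf6. The 30 tested genes flanking Cxcl5, equal numbers on each side, had a median log2 fold change of 0.02, 10 of them higher and 13 lower.

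Levels of different genes were compared per length, as CPM per kb of the longest transcript in GENCODE M21. For Cxcl3 that transcript has 3.498 kb, longer than its whole RefSeq gene span, bases 90786101 to 90788093. Those of Cxcl1 (1.871 kb) and Cxcl2 (2.066 kb) are about as long as their whole RefSeq gene spans, introns included. Which transcripts the cells made is not known. Where these are shorter, the level per kb is too low, so shares, ratios and ranks between genes depend on these lengths. The 5 measured CXCR2 ligands (Ppbp, Cxcl1, Cxcl2, Cxcl3 and Cxcl5) summed to 136.9 to 144.2 CPM per kb in CSC libraries and to 50.2 to 54.4 in non-CSC libraries. Ppbp made up 67.0% to 68.4% of that sum in CSC and 77.8% to 79.0% in non-CSC. Cxcl5 made up 21.5% to 22.6% in CSC and 2.26% to 3.19% in non-CSC, and Cxcl2 1.00% to 1.46% in CSC and 3.89% to 4.39% in non-CSC. The share of Cxcl1 was 3.83% to 4.21% in CSC and 4.20% to 5.42% in non-CSC. By this measure Cxcl5 ranked next to Ppbp in each CSC library and last of the 5 in each non-CSC library. The level of Cxcl1 per kb was 2.88, 3.47 and 3.81 times that of Cxcl2 in the CSC libraries and 0.955, 1.02 and 1.39 times in the non-CSC libraries.

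**Figure D3:**
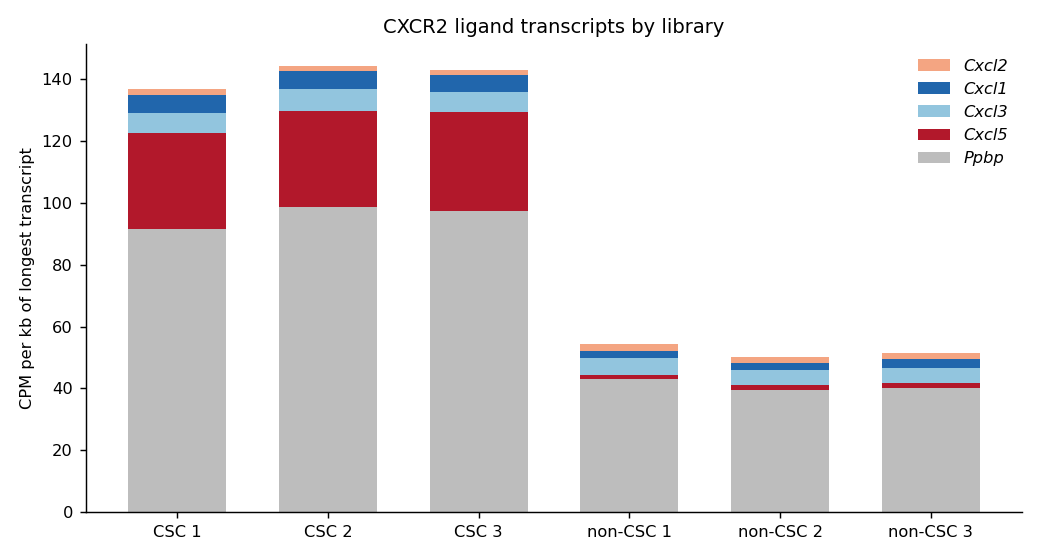
Stacked levels of the 5 measured CXCR2 ligand genes in CPM per kb of the longest transcript (vertical axis, starting at 0) in each of the 3 CSC and 3 non-CSC libraries. The CSC sums are 136.9 to 144.2 and the non-CSC sums 50.2 to 54.4, and Cxcl5 (red) is a wide band in the CSC libraries, with 21.5% to 22.6% of the sum against 2.26% to 3.19%.

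Ccl2, which encodes the monocyte chemokine MCP-1, rose in CSC. The gene is on chromosome 11, bases 82035577 to 82037452. Counts of 338, 367 and 342 in CSC stood against 100, 119 and 123 in non-CSC, or 12.3, 13.0 and 11.8 CPM against 3.19, 3.43 and 3.48 CPM. No library of one group came near the other group. This was a 3.66-fold rise, 1.87 ± 0.0870 (SE) on the log2 scale (edgeR adjusted p = 8.02e-15).

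Ccl7 (MCP-3), which starts 10.1 kb from Ccl2 at 82045712 to 82047525, was near the limit of detection. It had 5, 7 and 8 counts in CSC and 0, 1 and 0 in non-CSC. Each CSC library had more counts than any non-CSC library, but the low-count filter removed the gene, so it has no test. From group totals of 20 and 1 counts, the ratio of CSC to non-CSC was 23.9 with an exact 95% interval of 3.82 to 991, which covers counting error only. Other genes of this CC cluster were at or near 0: Ccl8 had 6 counts in CSC and 1 in non-CSC over 3 libraries each, and Ccl11, Ccl12 and Ccl1 had 0 in both, where 3 counts would be 0.103 to 0.109 CPM in a CSC library and 0.0849 to 0.0956 CPM in a non-CSC library. The next tested gene before Ccl2 with a coding product, Tmem98, starts at -1225 kb and rose by 1.00 on the log2 scale, as did the long non-coding gene Gm31228 beside it, by 1.03. The 30 tested genes flanking Ccl2, equal numbers on each side, had a median of 0.10.

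Cx3cl1, the membrane-bound chemokine, rose in CSC as well. Its span is 94772180 to 94782427 on chromosome 8. The counts were 1453, 1340 and 1432 in CSC and 595, 698 and 668 in non-CSC. They correspond to 52.7, 47.4 and 49.4 CPM in CSC against 19.0, 20.1 and 18.9 CPM in non-CSC, without overlap. It rose 2.58-fold, or by 1.37 ± 0.0537 (SE) on the log2 scale (edgeR adjusted p = 3.41e-16).

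Genes beside Cx3cl1 were also higher in CSC on its downstream side. Gm51543, a long non-coding gene whose RefSeq span covers 1327 bases of that of Cx3cl1, rose by 1.39 with 14.8 CPM in CSC and 5.63 CPM in non-CSC. With the strand setting of the counting unknown, reads of the shared stretch cannot be assigned to one gene. Ccl17 (TARC), a chemokine for CCR4-bearing T cells, starts 37.2 kb away. It had 1.21 CPM in CSC and 0.235 CPM in non-CSC and rose by 2.34 on the log2 scale. On the other side Pllp fell by 0.24 on the log2 scale (edgeR adjusted p = 0.0325), a call lost in 7 of 15 alternatives, and 54.2% of its exon bases lie under a gene on the opposite strand. Over the 30 flanking tested genes, equal numbers on each side, the median was 0.01.

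The sheddases of Cx3cl1 and their regulators were called in both directions. Adam10 and Adam17 encode the proteases known to release the ectodomain of fractalkine, and Rhbdf1 and Rhbdf2 encode iRhoms, which are needed for the maturation of ADAM17. Of these 4 genes, 1 was called higher and 2 lower in CSC. Rhbdf2 fell by 0.66 and Rhbdf1 by 0.40 on the log2 scale. Adam10 averaged 114.4 ± 2.50 CPM in CSC and 107.3 ± 2.47 CPM in non-CSC (SD, n = 3 each), which on the log2 scale was 0.09 (edgeR adjusted p = 0.0307) whose call was lost in 6 of 15 alternatives. Adam17, at 49.5 and 50.7 CPM, did not pass (edgeR adjusted p = 0.506).

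Csf1 was the most abundant member per length in non-CSC and did not differ detectably between the groups. The gene covers 107741048 to 107760469 on chromosome 3. Counts were 1877, 1732 and 1905 in CSC and 1949, 2431 and 2246 in non-CSC, or 68.1, 61.2 and 65.7 CPM in CSC and 62.1, 70.1 and 63.5 CPM in non-CSC. The ranges overlapped widely. Its log2 fold change was -0.01 with a 95% interval of -0.10 to 0.09 (edgeR adjusted p = 0.924), and its sign depended on the scaling and the libraries used. Tested genes around it moved both ways: Gm40121, a long non-coding gene, fell by 0.68 on the log2 scale, while Eps8l3 rose by 1.51 and the non-coding 4933431E20Rik, which lies opposite 42.4% of the exon bases of Eps8l3, by 0.96.

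Csf2 rose in CSC. On chromosome 11 it covers bases 54247270 to 54249899. It had 346, 309 and 313 counts in CSC and 84, 88 and 70 in non-CSC. The levels were 12.6, 10.9 and 10.8 CPM in CSC against 2.68, 2.54 and 1.98 CPM in non-CSC, again with a clear gap. The rise was 4.77-fold, or 2.25 ± 0.108 (SE) on the log2 scale (edgeR adjusted p = 1.31e-14).

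Reads of the Csf2 locus carry an ambiguity. The long non-coding gene Gm12223 overlaps 12% of the exon bases of Csf2 from the opposite strand. It had 1.05 CPM in CSC and 0.206 CPM in non-CSC and rose by 2.32 on the log2 scale. A further non-coding gene, 4933405E24Rik, rose by 1.38, and Fnip1 on the other side did not pass the test. The 30 tested genes flanking Csf2, equal numbers on each side over 1662 kb, had a median log2 fold change of 0.30. That was the highest of the 10 members' stretches, with 16 higher and 3 lower. Over all genes tested the median was 0.01, with 33.4% higher and 33.1% lower. Whether the stretch bears on Csf2 was not tested.

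Csf3 and Il6 were near the limit of detection in both groups. Csf3 (chromosome 11, 98700183 to 98703631) had 1, 4 and 2 counts in CSC and 1, 11 and 1 in non-CSC, and the non-CSC total rests on replicate 2. The ratio of the group totals was 0.644 with an exact 95% interval of 0.217 to 1.74, and 2.75 with an interval of 0.524 to 27.2 without that library, so no direction was detectable at this depth. Il6 (chromosome 5, 30013114 to 30019975) had 8, 13 and 10 counts in CSC and 16, 9 and 12 in non-CSC. It was tested, with a log2 fold change of 0.00 and a 95% interval of -0.67 to 0.67 (edgeR adjusted p = 0.998). A difference of up to 1.66-fold in either direction lies within the exact counting interval of its totals, 0.601 to 1.66. Next to Csf3, the proteasome subunit gene Psmd3 fell by 0.34 and the thyroid hormone receptor gene Thra by 0.52 on the log2 scale. Next to Il6, the thymidylate synthase gene Tyms rose by 0.66, Dnajb6 by 0.30 and Ube3c by 0.14, the last call being lost without CSC replicate 3. Of the 50-base words of Dnajb6, 35.8% are shared with other genes, chiefly Gm2541, and of those of Tyms 8.01%, chiefly with Vmn1r229.

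By level per kb of the longest transcript, and so depending on those lengths, the order of the members differed between the groups. In CSC it was Cxcl5 (31.2 ± 0.467 CPM per kb, SD, n = 3), Csf1 (15.6 ± 0.839), Cx3cl1 (15.03 ± 0.820), Csf2 (14.3 ± 1.23), Ccl2 (11.3 ± 0.543), Cxcl1 (5.68 ± 0.186), Cxcl2 (1.70 ± 0.285), Ccl7 (0.293 ± 0.0604), Il6 (0.156 ± 0.0369) and Csf3 (0.0582 ± 0.0381). In non-CSC it was Csf1 (15.6 ± 1.02 CPM per kb, SD, n = 3), Cx3cl1 (5.83 ± 0.208), Ccl2 (3.07 ± 0.143), Csf2 (2.998 ± 0.461), Cxcl1 (2.40 ± 0.343), Cxcl2 (2.16 ± 0.205), Cxcl5 (1.47 ± 0.214), Il6 (0.158 ± 0.0546), Csf3 (0.0890 ± 0.117) and Ccl7 (0.0120 ± 0.0208). Neighbours in this order whose library values overlapped were Csf1 with Cx3cl1 and Cx3cl1 with Csf2 in CSC. In non-CSC they were Ccl2 with Csf2, Csf2 with Cxcl1, Cxcl1 with Cxcl2, Il6 with Csf3 and Csf3 with Ccl7. The level of Csf1 per kb was 1.04, 1.07 and 1.17 times that of Csf2 in CSC libraries and 4.44, 5.29 and 6.15 times in non-CSC libraries.

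The other genes of these pathways are given next by list. Of 12 other CXC chemokine genes, 6 were tested, and 4 of these rose and 1 fell (median log2 fold change 0.29, against 0.01 over all genes tested). Beside Ppbp, Cxcl15 and Cxcl3, Cxcl16, a membrane-bound ligand of CXCR6, rose by 0.21 (114.9 ± 4.54 CPM in CSC and 99.5 ± 3.32 CPM in non-CSC, SD, n = 3 each). The gene that fell, named after its value was seen, was the interferon-induced Cxcl10, with 0.755 CPM in CSC and 1.24 CPM in non-CSC. Of 20 other CC and XC chemokine genes, 4 were tested and 11 had no count in any library. Ccl25, a thymic and intestinal chemokine, rose by 0.69, and Ccl27a by 0.27. Of the 50-base words of Ccl27a, 69.2% are shared with other genes, chiefly Gm20878, and its call was lost in 5 of 15 alternatives. Together with Ccl17 that makes 3 higher and none lower.

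Receptor genes for the members were mostly at or near 0 counts. Of 15 receptor genes, 12 were too low to test, and 7 of them had no count in any library: Cxcr1, Ccr2, Ccr3, Ackr1, Csf2rb, Csf2rb2 and Csf3r. Cxcr2 had 2 counts in CSC and 11 in non-CSC over 3 libraries each, and Cx3cr1 had 2 and 1. The 3 tested receptor genes all rose. Csf1r, the receptor of Csf1 and Il34, averaged 8.06 ± 0.613 CPM in CSC and 1.85 ± 0.0340 CPM in non-CSC (SD, n = 3 each), which on the log2 scale was 2.12 (edgeR adjusted p = 4.80e-14). Il6ra averaged 44.4 ± 2.29 CPM in CSC and 18.4 ± 0.537 CPM in non-CSC and rose by 1.27, and Il6st, which encodes gp130, rose by 0.77 on the log2 scale. Exons of Hmgxb3 on the opposite strand cover 15.1% of the exon bases of Csf1r.

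Csf1r is also a myeloid marker, so the leukocyte list is given beside it. Of 15 leukocyte markers, 4 were tested, 3 of which were at least 2-fold higher in CSC and 1 lower. The 15 summed to 45.6 to 46.1 CPM in CSC libraries and 30.2 to 31.5 CPM in non-CSC libraries. Csf1r, Itgam (10.2 CPM in CSC and 0.741 CPM in non-CSC) and Ly6g (9.02 and 2.20 CPM) were higher, and Cd68 (17.8 and 25.4 CPM) was lower. Of the 11 that were too low to test, Adgre1, Tyrobp, Cd3e and Ms4a1 had no count in any library. Ptprc, the pan-leukocyte gene of CD45, had 13 counts in the CSC libraries and 9 in the non-CSC libraries together. S100a8 had 17 and 1 counts and Lyz2 had 6 and 28. The part of other cells in the change of Csf1r was not tested.

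Of 7 other haematopoietic growth factor genes, 4 were tested. Il34, the second ligand of Csf1r, rose by 1.25 on the log2 scale, with 57.4 ± 1.04 CPM in CSC and 24.1 ± 1.18 CPM in non-CSC (SD, n = 3 each). Kitl, which encodes stem cell factor, fell by 0.35 and Thpo, thrombopoietin, by 0.39. Of the interleukin 6 family, 5 of 7 other genes were tested, none rose and 4 fell: Lif by 0.31, Cntf by 0.38, Clcf1 by 0.16 and, named after its value was seen, Il11, at 0.248 CPM in CSC and 0.662 CPM in non-CSC. Zfp91 shares 78.9% of the exon bases of Cntf on the same strand, so the level of Cntf is uncertain, and the calls of Cntf and Clcf1 were lost in 1 and 6 of 15 alternatives. Among 11 other inflammatory cytokines, 6 were tested, 4 rose and 1 fell. Il18 averaged 10.97 ± 0.860 CPM in CSC and 1.66 ± 0.216 CPM in non-CSC, a log2 fold change of 2.72, and Il33 rose by 0.92 and Il23a by 0.64, the last call being lost without non-CSC replicate 3. Il1a, chosen after its value was seen, had 1.18 CPM in CSC and 0.389 CPM in non-CSC. Mif fell by 0.25, with 37.6% of its 50-base words shared with other genes. Il1b and Tnf had 6 counts each in CSC and 0 and 2 in non-CSC.

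**Figure D4:**
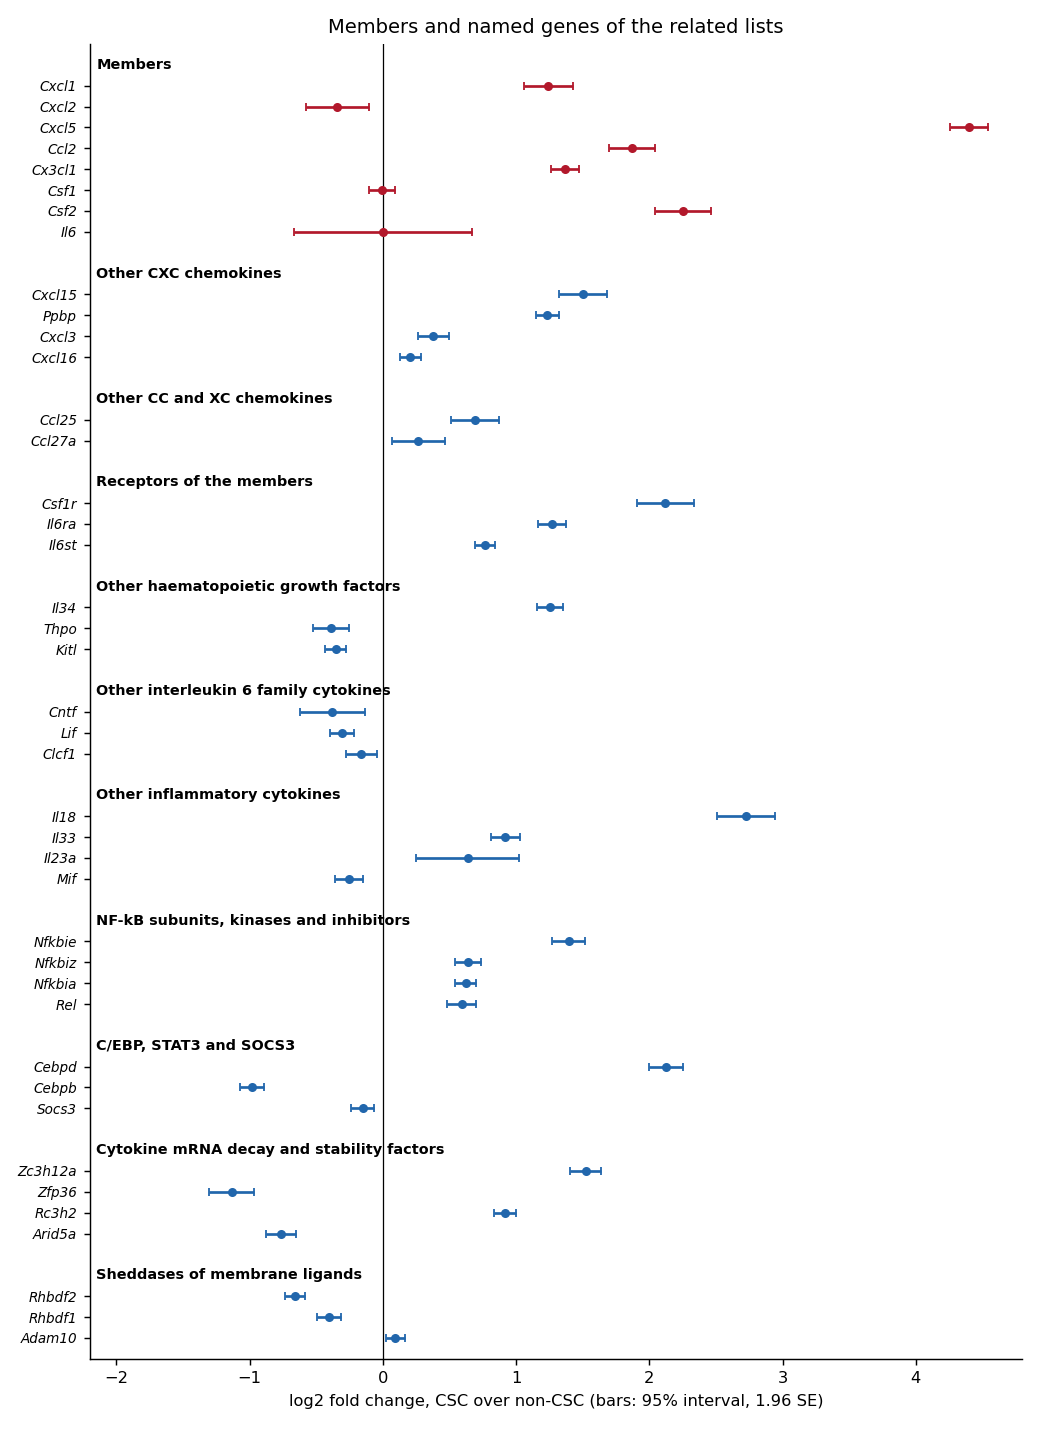
The log2 fold change of CSC over non-CSC (horizontal axis, bars are 95% intervals) of the 8 tested members (red) and of the named genes of each related list (blue). Among the members Cxcl5 lies farthest right at 4.40 and Cxcl2 is the only one whose interval lies below 0, and the 3 interleukin 6 family genes shown lie to the left. The 4 NF-kB pathway genes shown, those of largest change, lie to the right, while 4 of that list's 14 genes that fell are not plotted.

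Genes of the transcription factors that act on cytokine promoters moved in both directions. All 14 genes of NF-kB subunits, kinases and inhibitors were tested: 8 rose, 4 fell and 2 did not pass, with a median of 0.31. Those with the largest changes were 3 genes of the IkB family and 1 subunit gene. Nfkbie rose by 1.39 (27.1 ± 1.37 CPM in CSC and 10.3 ± 0.596 CPM in non-CSC, SD, n = 3 each), Nfkbiz by 0.64, Nfkbia, which encodes IkB-alpha, by 0.62, and the subunit gene Rel by 0.59. The 4 that fell, named after their values were seen, were the subunit genes Rela (-0.55), Nfkb1 (-0.49) and Nfkb2 (-0.18) and the kinase gene Chuk (-0.40), each as a log2 fold change. Of the C/EBP, STAT3 and SOCS3 genes, Cebpd rose by 2.12, with 29.0 ± 0.486 CPM in CSC and 6.66 ± 0.392 CPM in non-CSC. Cebpb fell by 0.98, with 81.0 ± 4.84 CPM in CSC and 160.2 ± 8.78 CPM in non-CSC. Socs3 fell by 0.15, but it did not pass under upper-quartile or under library-size scaling. Stat3 did not pass (edgeR adjusted p = 0.646). Genes on the opposite strand cover 15% of the exon bases of Cebpd and 20.7% of those of Cebpb.

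Factors that bind cytokine messenger RNA were all tested, and 5 of 10 rose and 5 fell. Zc3h12a, which encodes the cytokine-mRNA nuclease Regnase-1, rose by 1.52 (37.7 ± 2.04 CPM in CSC and 13.1 ± 0.634 CPM in non-CSC, SD, n = 3 each), and Rc3h2, a Roquin gene, rose by 0.92. Zfp36, which encodes tristetraprolin, a factor known to speed the decay of Csf2 messenger RNA among others, fell by 1.13 (9.61 ± 1.26 CPM in CSC and 21.1 ± 1.97 CPM in non-CSC). Arid5a, known to stabilise Il6 messenger RNA, fell by 0.76.

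For the 6 members with a call and a mean of at least 1 CPM, the most alike patterns were sought by Euclidean distance in centred log2 CPM over the 6 libraries, among 11573 other protein-coding genes. With 2 groups that differ, likeness mostly reflects a fold change of the same size, so it is a description. Nearest to Cxcl5 were Enpp2 (distance 0.425, 118.2 CPM in CSC and 6.38 CPM in non-CSC) and Serpinb11 (0.464, 124.0 and 6.79 CPM). Ccl2 was followed most closely by Rdh10 (0.0791) and Tff2 (0.135), Csf2 by Fzd1 (0.201) and Ttc36 (0.262), and Cx3cl1 by Akap12 (0.1004) and Dhrs3 (0.108). Of the exon bases of Ttc36, 47.6% lie under Gm48702 on the opposite strand. The nearest to Cxcl1 were Bfsp1 (0.121) and Psmb10 (0.182), and to Cxcl2, Dnajc4 (0.135) and Myom1 (0.137).

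The labels were checked against markers. All 10 mammary epithelial genes were tested, of which 5 rose and 2 fell. The luminal keratin gene Krt7 rose 2.11-fold (1057 CPM in CSC and 501 CPM in non-CSC). A log2 rise of 0.27 was measured for Krt8 (863 CPM in CSC and 715 CPM in non-CSC). Krt19, Esr1 and the basal keratin gene Krt14 (259 CPM in CSC and 224 CPM in non-CSC) also rose, by 0.15 to 0.21 on the log2 scale. The genes that fell were Krt5, a basal keratin gene, by 1.85 on the log2 scale (1.01 CPM in CSC and 3.64 CPM in non-CSC), and Epcam by 1.05 (10.3 and 21.3 CPM). Krt18 (1267 CPM in CSC and 1255 CPM in non-CSC), Erbb2 (46.9 and 48.3 CPM) and Cdh1 (0.752 and 0.952 CPM) did not pass. Of 12 genes used to mark breast cancer stem cells, 6 rose and 3 fell. Aldh3a1, Lgr5 and Abcg2 were at least 2-fold higher in CSC. Smaller log2 rises were measured for Aldh1a1 (0.69), Cd24a (0.50, with 187 CPM in CSC and 132 CPM in non-CSC) and Cd44 (0.17). Itga6, Itgb1 and Procr were lower, and Prom1 had 19 counts in CSC and 23 in non-CSC. Of 10 fibroblast and endothelial genes, 4 were tested, of which 3 rose and 1 fell. Dcn rose by 1.10 on the log2 scale, Col1a1 by 1.04 (1.06 CPM in CSC and 0.514 CPM in non-CSC) and Pdgfra by 0.36, and the endothelial gene Pecam1 fell by 0.81 (0.331 and 0.586 CPM). The list summed to 1197 to 1244 CPM in CSC and 556 to 590.3 CPM in non-CSC, of which Dcn was 1212 and 567 CPM on average, while Lum had no count and Cdh5 had 3 and 2. The part of these differences in the members' changes was not tested. Replicates of a group differed by more than sampling noise (chi-square per degree of freedom 3.21 to 7.30), so no pair was treated as 1 library deposited again. This does not show that they were separate cultures.

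**Figure D5:**
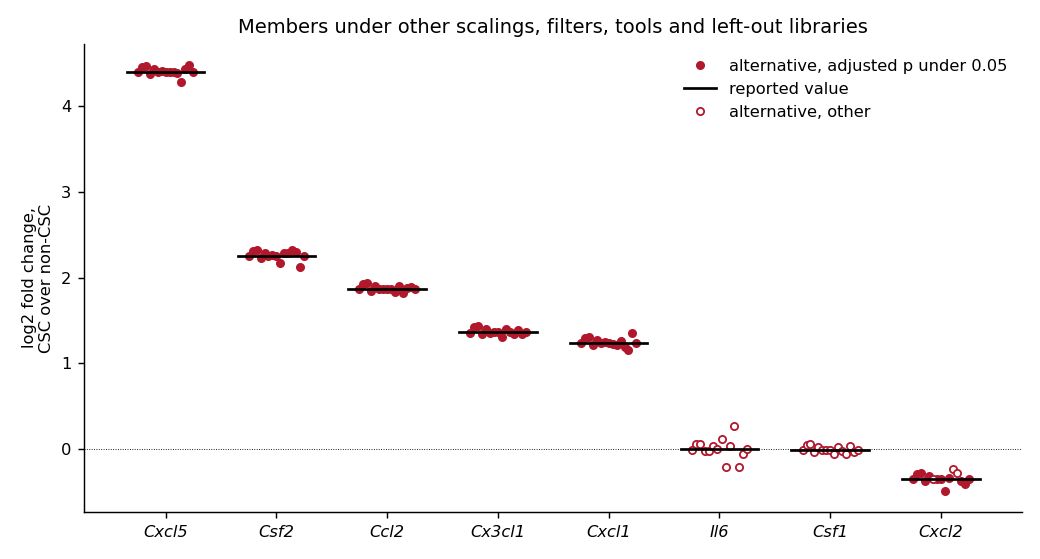
The log2 fold change of CSC over non-CSC (vertical axis) of the 8 tested members as reported (black lines) and under each alternative of scaling, filter, tool, replicate block or left-out library (points, filled where the adjusted p was under 0.05). Cxcl5, Csf2, Ccl2, Cx3cl1 and Cxcl1 stay filled and well above 0, Cxcl2 has 3 open points, and Il6 and Csf1 lie on both sides of 0.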

How the data were processed

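RNA sequencing of 6 EO771 libraries, 3 CSC and 3 non-CSC by their titles, was analysed. The authors deposited a gene-by-library table of raw counts, whole numbers without normalization. The build was GRCm38, per the submitters' processing notes. The sources used here name no aligner, counting tool, annotation or strand setting. Columns were matched to samples by group word and replicate number, and no row lacked a gene name. Per the labels, RNA was taken up in Trizol and libraries were made with a NEBNext Ultra II kit.

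Counts were filtered (filterByExpr), TMM-scaled (factors 0.974 to 1.03) and fitted with edgeR 4.0.16 (R 4.3.3; quasi-likelihood, robust, no covariate), and p-values were adjusted by Benjamini-Hochberg across 17630 genes. The SE is the size of the log2 fold change divided by the square root of F, and 95% intervals follow from it. CPM use scaled library sizes. With 3 libraries a group, an exact permutation test of 1 value cannot reach the threshold and was not used. The depth puts a limit of 3 counts at 0.0849 to 0.109 CPM. Exact intervals of count totals and these limits cover counting error only.

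The members and lists were chosen with earlier results of these data known. Named were all members, up to 4 called genes of each list with a mean of at least 1 CPM, the 2 genes of most alike pattern and the 2 tested neighbours on each side. Overlap was checked in GENCODE M21 for 78 of 83 named genes. Gene coordinates and sequences are from RefSeq (GRCm38.p6). Counts were simulated for 17630 genes to test the method, with 50 genes changed at each fold of 1.5, 2, 4 and 8. In that order 33, 45, 50 and 49 were recovered, and 20 of 197 calls were false. A far smaller share of genes changed there than was called in these data, so these rates may not carry over. Alternatives were 3 scalings, 2 filters, DESeq2 1.42.0, limma-voom (limma 3.58.1), robust off, a replicate block and leaving out each library.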

Additional observations from a re-analysis of the deposited data

How the results depend on the processing

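Cxcl5, Csf2, Ccl2, Cx3cl1 and Cxcl1 were higher in CSC with an adjusted p under 0.05 in all 15 alternatives, with log2 fold changes of 4.28 to 4.47, 2.12 to 2.32, 1.82 to 1.94, 1.31 to 1.43 and 1.15 to 1.36. Cxcl2 was lower in all 15 (-0.48 to -0.23) and passed in 12. It missed the threshold with DESeq2 (-0.35), where the count of members lower was 0, and the count of members lower ranged from 0 to 1 and the value from -0.48 to -0.23 when 1 library was left out. The cause was not tested. Without the low-count filter, which tested 30642 genes, Ccl7 also passed (edgeR adjusted p = 3.05e-05) and Csf3 did not (edgeR adjusted p = 0.499). Csf1 and Il6 passed in none. The Csf1 log2 fold change turned sign with upper-quartile scaling (0.0527), with library size only (0.0601) and with a mean of at least 50 counts (0.0255), and ranged from -0.0514 to 0.0442 when 1 library was left out. The Il6 log2 fold change turned sign with RLE scaling (-0.00496), without a filter (-0.0243), with DESeq2 (-0.0158) and with the replicate block (-0.000426), and ranged from -0.20 to 0.27 when 1 library was left out. It was not tested at a mean of at least 50 counts.

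Same-numbered libraries did not deviate together (r = -0.0112, -0.0257 and -0.0216), and the other pairs across groups had r of 0.00242 to 0.0191. The deviations may be mostly technical, so this check cannot tell whether the numbers pair the samples. With the replicate block the count of all genes differing, CSC over non-CSC, was 11680, against 11732 without it, and no member gained or lost a call. Over all genes the median was 0.07 under upper-quartile scaling and 0.08 with library size only. Of the other named genes and list counts, 29 values lost and 1 gained a call, 15 list counts moved, and none changed sign.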
